A study of Arabidopsis thaliana with 5 samples.

Results

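The 4 genes studied here belong to the plant lipid transfer protein family. AT4G12545, AT5G46900, AT1G62510 and AT2G44290 were followed over all 5 arrays of a study of calcium/calmodulin-binding transcription factors (CAMTA) in Arabidopsis thaliana. Every probe set naming 1 of these genes was taken, which gave 4 probe sets, 1 per gene, among the 8247 probe sets that were not array controls. In all, 3602 genes were named alone by a probe set. No probe set named a member together with another gene. The genes had been picked because they stood out in earlier comparisons of the same arrays, so the values below describe them and no test was made on them.

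RNA came from whole plants at growth stage 1.04, grown at 18 degrees Celsius with 16 h of light, and each group had 1 array. The CAMTA.1.2 array came from a T-DNA insertion line in Col-0 made with the vector pROK2. The CAMTA.6.2 array came from a pROK2 line in Col-0 that the labels describe as still segregating, so its plants may have differed in genotype. The CAMTA.1 array came from a line in the accession WS for which no genetic change is given. The WS and Col-0 arrays came from the accessions with no line named. With a single array per group no value has a replicate, no p-value was possible, and differences cannot be set against the spread between plants.

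Lipid transfer proteins are small secreted proteins with a fixed pattern of conserved cysteines, whose disulphide bridges enclose a cavity able to hold a lipid. Some members carry a glycosylphosphatidylinositol (GPI) anchor that ties them to the outside of the plasma membrane, and others have a proline-rich stretch ahead of the cysteine-rich part and are called hybrid proline-rich proteins. The family is known for roles in cuticle and suberin deposition, cell wall properties and defence signalling. Here AT4G12545, AT5G46900 and AT1G62510 were placed with the hybrid proline-rich genes and AT2G44290 with the genes for GPI-anchored proteins.

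Values are intensities after scaling of the arrays to a common median, and a floor of 18.1 was used for low values. On each array 59.3% to 60.7% of the probe sets exceeded the floor. All 4 members were above it on all 5 arrays. Some source names did not follow the labelled lines, since the Col-0 array carried KO1, the CAMTA.6.2 array WSC and the WS array EX1. Arrays are called here by their labelled line and accession. Probe sets naming a single gene covered 2 of the 6 CAMTA genes. CAMTA4 (AT1G67310) was under the floor on all arrays, at no more than 16.2, and CAMTA5 (AT4G16150) lay between 15.5 and 21.7, so no targeted gene was available to check the lines. ECS1, whose expression is known to vary among accessions, was chosen after its values were seen. It had 39.1 on the CAMTA.1 array and 97.3 on the WS array, against 3545 to 6832 on the 3 arrays with a Col-0 label.

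AT4G12545 spanned a wider range than the other members. Its intensity was 25.2 on the CAMTA.1.2 array, 286 on the CAMTA.6.2 array, 647 on the CAMTA.1 array, 103 on the WS array and 24.7 on the Col-0 array. Both lines CAMTA.6.2 and CAMTA.1 were thus high, WS lay between, and CAMTA.1.2 and Col-0 were together at the bottom, only 1.02-fold apart. The highest array exceeded the lowest 26.2-fold, and only 0.109% of all probe sets had a range as large. On CAMTA.6.2 the gene was 11.6-fold higher than on Col-0, a log2 difference of 3.53 that had rank 6 among the 4600 probe sets above the floor on both. On CAMTA.1 it was 6.29-fold higher than on WS (log2 2.65, rank 2 of 4663) and 4.17-fold higher on the WS array than on the Col-0 array (log2 2.06). The Col-0 value was only 1.37 times the floor, so folds over it are imprecise, and with log2(value + 16) in place of the floor the CAMTA.6.2 difference was 2.89.

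AT5G46900 set the Col-0 array apart from all others. Its intensity was 148 on the CAMTA.1.2 array, 198 on the CAMTA.6.2 array, 273 on the CAMTA.1 array, 177 on the WS array and 46.8 on the Col-0 array. The 4 arrays other than Col-0 followed each other in steps of 1.12-fold to 1.38-fold, and the step down to Col-0 was 3.17-fold. Against Col-0 the gene was 3.17-fold higher on the CAMTA.1.2 array (log2 1.66, rank 4 of 4636), 4.23-fold higher on CAMTA.6.2 (log2 2.08) and 3.77-fold higher on the WS array (log2 1.91). These 3 comparisons share the single low Col-0 array and are therefore not separate observations of a difference. The CAMTA.1 array was 1.54-fold above the WS array, at a log2 difference of 0.63. Set against WS, the CAMTA.1.2 array had a log2 difference of -0.25 and the CAMTA.6.2 array one of 0.17, so the direction for CAMTA.1.2 depended on which accession served as control.

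AT1G62510 was higher on each line array than on the array of its accession. Its intensity was 159 on the CAMTA.1.2 array, 552 on the CAMTA.6.2 array, 278 on the CAMTA.1 array, 76.2 on the WS array and 75.2 on the Col-0 array. The accession arrays lay 1.01-fold apart and below all 3 lines. On CAMTA.6.2 the gene was 7.34-fold higher than on Col-0 (log2 2.87, rank 11 of 4600) and 3.65-fold higher on the CAMTA.1 array than on the WS array (log2 1.87, rank 15 of 4663). The CAMTA.1.2 array was 2.11-fold above Col-0, at a log2 difference of 1.08 that fell short of 2-fold, at 0.94, with log2(value + 16). Its neighbours in the order differed by 1.99-fold between CAMTA.6.2 and CAMTA.1 and by 1.75-fold between CAMTA.1 and CAMTA.1.2.

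AT2G44290 ran the other way. Its intensity was 296 on the CAMTA.1.2 array, 130 on the CAMTA.6.2 array, 63.8 on the CAMTA.1 array, 294 on the WS array and 379 on the Col-0 array. The CAMTA.6.2 and CAMTA.1 arrays were low, and the CAMTA.1.2, WS and Col-0 arrays lay within 1.29-fold of each other. The gene was 4.60-fold lower on the CAMTA.1 array than on the WS array (log2 -2.20, rank 30 among the 4663 probe sets when ordered from the lowest) and 2.91-fold lower on the CAMTA.6.2 array than on the Col-0 array (log2 -1.54). On the CAMTA.1.2 array the log2 difference from Col-0 was -0.36, and on the WS array it was -0.37.

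**Figure D1:**
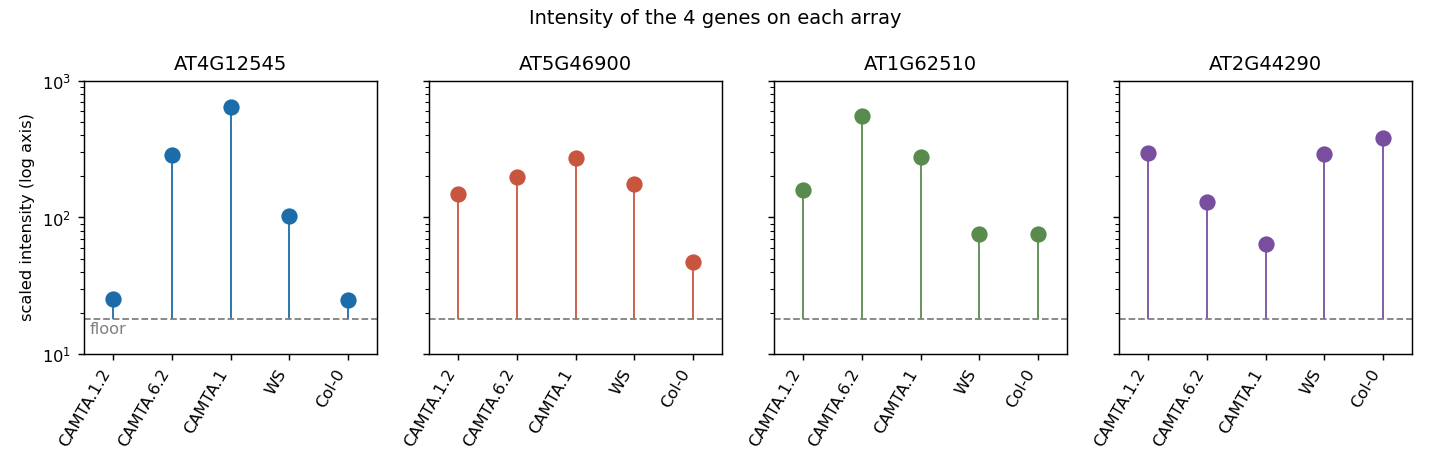
Scaled intensity (log axis) of the 4 genes on each of the 5 arrays, 1 point per array, with stems from the floor of 18.1 (dashed). AT4G12545 is at 647 on CAMTA.1 and at 24.7 on Col-0, AT5G46900 is low on the Col-0 array alone, AT1G62510 is higher on the 3 line arrays than on WS and Col-0, and AT2G44290 is low on the CAMTA.6.2 and CAMTA.1 arrays.

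Counted at 2-fold, 3 of the 4 genes were higher and 1 lower on the CAMTA.6.2 array than on the Col-0 array, where 3.47% of all probe sets were higher and 4.17% lower. For CAMTA.1 against WS, 2 were higher and 1 lower, with 2.41% and 3.71% of all probe sets. For CAMTA.1.2 against Col-0, 2 were higher and 0 lower, with 0.400% and 1.53%, and for WS against Col-0, 2 were higher and 0 lower, with 1.59% and 2.56%. Because the genes were chosen on these differences, the counts are not set against those shares. Each gene reached 2-fold in another set of comparisons. AT4G12545 did so in every comparison but CAMTA.1.2 against Col-0, and AT1G62510 in every one but WS against Col-0. AT5G46900 did so in every comparison but CAMTA.1 against WS, and AT2G44290 in the CAMTA.6.2 and CAMTA.1 comparisons, which have no array in common.

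**Figure D2:**
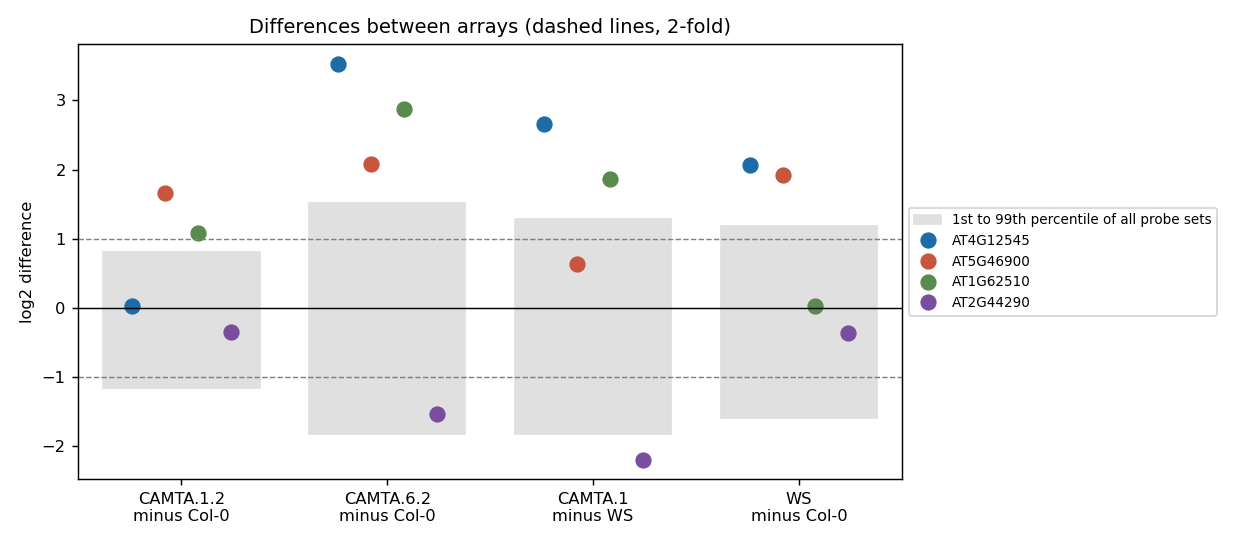
Log2 difference (y axis) of each of the 4 genes in the 4 comparisons (x axis), each between 2 single arrays, with the 1st to 99th percentile of all 8247 probe sets as grey bars and 2-fold as dashed lines. AT4G12545 reaches 3.53 for CAMTA.6.2 minus Col-0, and AT2G44290 reaches -2.20 for CAMTA.1 minus WS.

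The profiles of the members over the 5 arrays were compared as the root mean square difference of log2 values after each gene's mean was taken away. AT5G46900 and AT1G62510 were nearest to each other, at 0.88. AT4G12545 was 1.31 from AT5G46900 and 1.39 from AT1G62510, and AT2G44290 was 1.71 to 2.79 from the other 3. The measure takes in the size of the range as well as its shape, and AT4G12545 and AT5G46900 had the same order of the 5 arrays. By this measure the members did not share 1 profile.

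Each member lies beside other genes of the family on its chromosome. AT1G62510 is next to AT1G62500, also a hybrid proline-rich gene, whose intensity was 83.1 on the CAMTA.1.2 array, 93.9 on the CAMTA.6.2 array, 175 on the CAMTA.1 array, 93.9 on the WS array and 122 on the Col-0 array. AT1G62500 thus lay below Col-0 in both Col-0 lines, where AT1G62510 lay above, and both were higher on CAMTA.1 than on WS, by 0.90 for AT1G62500 on the log2 scale. AT2G44290 is next to AT2G44300, a gene of the same GPI-anchored class, which was at 121, 62.1, 103, 129 and 98.7 on the CAMTA.1.2, CAMTA.6.2, CAMTA.1, WS and Col-0 arrays. AT2G44300 was below its control on the CAMTA.6.2 and CAMTA.1 arrays, by less than AT2G44290, with log2 differences of -0.67 and -0.33. On the CAMTA.1.2 and WS arrays it was above Col-0, by 0.30 and 0.39, where AT2G44290 was below.

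AT4G12545 lies in a run of related genes that includes AT4G12530, 3 genes away, and AIR1, the adjacent gene, named for its induction by auxin in root cultures. AT4G12530 was above Col-0 on every other array, at 26.2 to 32.6 on these and 21.6 on Col-0, but below 2-fold and close to the floor. AIR1 and AT5G46890, the neighbour of AT5G46900, had no probe set naming them and were not analysed here. Near-identical members of such gene runs can bind the same probes, and the probe sequences were not used here. Whether part of a member's signal came from such relatives was not tested.

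Of 92 family loci listed, 18 were named alone by a probe set, and 17 of these were above the floor on at least 1 array. The 14 other than the members are what was left once genes picked for standing out on these arrays were set aside. Their counts and medians are thus partly set by that choice, and the shares of all probe sets are given as background only. Of these 14, 2 were 2-fold higher on the CAMTA.1 array than on WS and 0 lower, where 2.41% of all probe sets were higher and 3.71% lower. AT4G22610, a hybrid proline-rich gene, was at 102 on the CAMTA.1 array and 42.7 on the WS array (log2 1.26). AT2G45180, of the same class, was at 4470 and 2207 on those arrays (log2 1.02), but fell short of 2-fold with the values as deposited, at 0.89, with quantile normalization, at 0.56, and as the mean of its 2 probe sets, at 0.89.

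For CAMTA.6.2 against Col-0, 0 of these 14 genes were 2-fold higher or lower, with 3.47% and 4.17% of all probe sets, although AT4G00165 came to -0.95, AT4G22460 to 0.86 and AT4G22610 to 0.82 on the log2 scale. For CAMTA.1.2 against Col-0, 1 of 14 was 2-fold lower and 0 higher, where 1.53% of all probe sets were lower. For WS against the same Col-0 array the count was again 1 lower and 0 higher, with 2.56% of all probe sets lower. In both cases it was AT2G18370, a type 1 lipid transfer protein gene. AT2G18370 was at 61.3 on the CAMTA.1.2 array, 154 on the CAMTA.6.2 array, 110 on the CAMTA.1 array, 78.5 on the WS array and 207 on the Col-0 array. Col-0 was thus the highest of the 5 arrays for AT2G18370 and the lowest for AT5G46900, while both genes were higher on CAMTA.1 than on WS, at log2 differences of 0.49 and 0.63.

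By class, 9 hybrid proline-rich genes other than members were measured. For CAMTA.6.2 against Col-0 their median log2 difference was 0.54, with 7 above 0 and 2 below. The 0.54 was the value of AT4G12530, which was close to the floor. The median over all probe sets was 0.00, and over those above the floor on both arrays it was 0.05. The 9 genes had a median of 0.31 for CAMTA.1 against WS, again the value of AT4G12530. Probe sets above the floor on both of those arrays had 0.11. The medians of the 9 genes were 0.06 for CAMTA.1.2 against Col-0 and 0.00 for WS against Col-0. The latter was the value of a gene at the floor. The scaling set the CAMTA.1 against WS comparison up by 0.13 relative to the deposited values. The GPI-anchored class had 5 measured genes, AT2G44290 included, with a median of 0.00 in all 4 comparisons, and AT2G44290 was the only one of them at 2-fold in any. AT4G12360 of this class was at 75.6 to 106 on the 5 arrays. AT4G14815 was under the floor throughout, and AT4G22640 was above it on the CAMTA.6.2 array alone, at 18.4. In each comparison the class median of 0.00 was the value of a gene at the floor on both arrays. It therefore does not show that the class was unchanged.

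**Figure D3:**
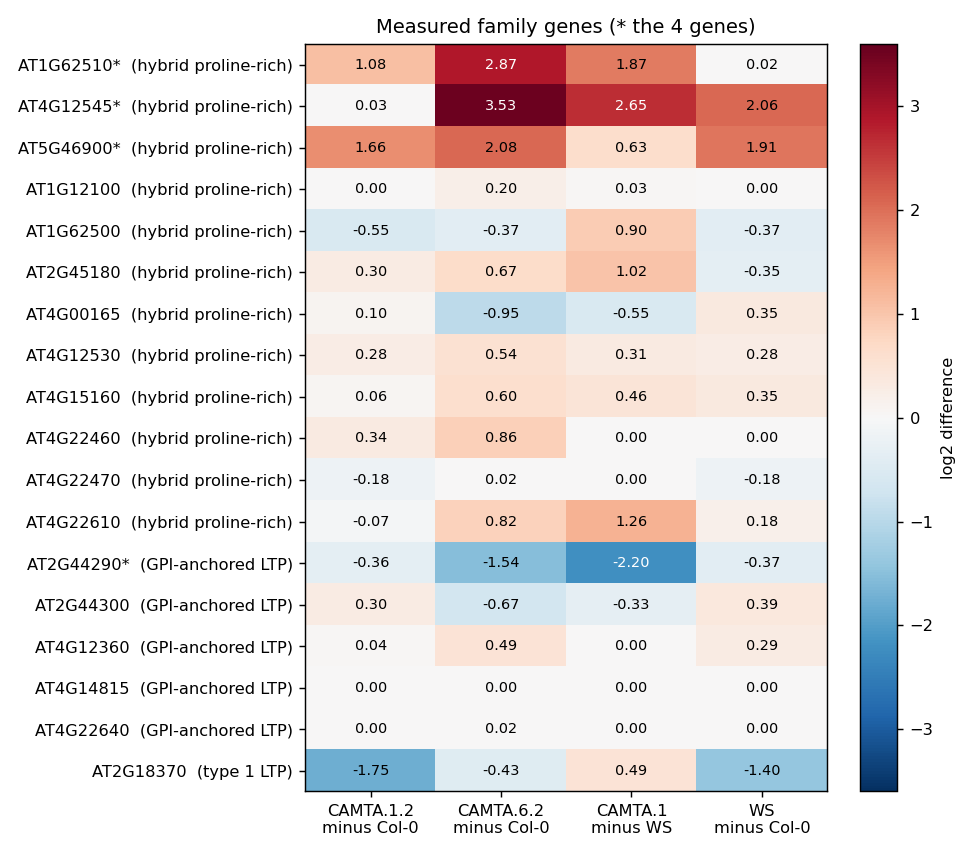
Log2 difference of the 18 measured family genes (rows, with their class, the 4 members starred) in the 4 comparisons (columns), each cell with its value. Values of 2 or more appear in the rows of AT1G62510, AT4G12545 and AT5G46900, and the value under -2 in the row of AT2G44290.

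Markers of roots and of green tissue were read on the same arrays, because whole plants hold both and the share of each may differ between samples. The number of root cells and the RNA per cell cannot be told apart in such samples. All 7 measured of 30 root markers were above the floor on the CAMTA.6.2, CAMTA.1 and WS arrays, 5 on the CAMTA.1.2 array and 6 on the Col-0 array. Their summed intensity was 501 on the CAMTA.1.2 array, 1505 on the CAMTA.6.2 array, 1962 on the CAMTA.1 array, 1399 on the WS array and 623 on the Col-0 array. AT4G12545 was likewise high on CAMTA.1, CAMTA.6.2 and WS, in the order of the sums, and low on CAMTA.1.2 and Col-0. Only 2 of the 7 markers taken singly, BGLU21 and AT4G30170, had that order, and BGLU21 made up much of each sum. AT5G46900 departed from the sums on the CAMTA.1.2 array, where it was 3.17-fold above Col-0 while the summed markers were below Col-0. Taken singly, 2 markers were above Col-0 there, AT3G01190 and AT4G11290, by log2 differences of 0.53 and 0.32, and 4 were below. AT1G62510 departed from the sums on CAMTA.1.2 in the same way, at 2.11-fold above Col-0. It also did so on the WS array, where it was level with Col-0. Unlike the sums, AT1G62510 was also higher on CAMTA.6.2 than on CAMTA.1.

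Of the 7 root markers, 4 were 2-fold higher on CAMTA.6.2 than on Col-0, where 3.47% of all probe sets were higher. On WS 5 were 2-fold higher than on Col-0, against 1.59% of all probe sets. The median log2 differences were 1.03 and 1.20. The first was set by the marker AT4G26010, at 14.3 on Col-0 before its value was raised to the floor. For CAMTA.6.2 this marker came to 0.99 as deposited, 0.34 with the floor at the 50th percentile and 1.38 with it at the 30th. On WS these floors gave it 0.57 and 1.60. AT3G01190 fell to 0.92 for CAMTA.6.2 with the higher floor, so the counts at 2-fold depend on the floor. For CAMTA.1 against WS 0 root markers were 2-fold apart, where 2.41% of all probe sets were higher and 3.71% lower. For CAMTA.1.2 against Col-0 0 were 2-fold apart, with 0.400% and 1.53%. With 7 markers, a count of 0 is near such shares. BGLU21, a beta-glucosidase gene, was at 195, 749, 941, 602 and 263 on the CAMTA.1.2, CAMTA.6.2, CAMTA.1, WS and Col-0 arrays. The peroxidase gene AT4G11290 was at 47.7, 37.9, 140, 120 and 38.2 on them, so CAMTA.6.2 was level with Col-0 there. The markers AT4G26010 and AT3G49960 were highest on the WS array, at 43.2 and 35.8. For CAMTA.1 against WS, where AT4G12545 was 2.65 higher on the log2 scale, the root markers had a median of 0.23. The part of root content in the members' values was not tested.

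The summed intensity of the 4 measured green tissue markers was 10570 on the CAMTA.1.2 array, 12882 on the CAMTA.6.2 array, 10834 on the CAMTA.1 array, 7176 on the WS array and 9232 on the Col-0 array, with none under the floor. These sums shared the order of AT1G62510 on the 3 line arrays, with CAMTA.6.2 highest, then CAMTA.1 and then CAMTA.1.2. Both were lower on WS and Col-0. The sums on CAMTA.1 and CAMTA.1.2 were nearly level, however, where AT1G62510 differed 1.75-fold, and RCA and PSAE-1 made up most of each sum. Of the single markers, 2 of 4, LHB1B2 and PSAE-1, had the order of AT1G62510 on the line arrays. The other 2, the carbon fixation genes RCA and PRK, were highest on CAMTA.1.2, and on CAMTA.6.2 they were below Col-0, by log2 differences of -0.14 and -0.65. The ratio of 3′ to 5′ signal of the ubiquitin control is a measure of RNA integrity and labelling. This ratio was 3.57 on the CAMTA.6.2 array and 3.32 on the CAMTA.1 array. It was 2.68 on the CAMTA.1.2 array, 2.28 on the WS array and 2.64 on the Col-0 array. On CAMTA.6.2 and CAMTA.1, AT2G44290 had its lowest values and AT4G12545, AT5G46900 and AT1G62510 had their highest. For AT5G46900, however, CAMTA.6.2 was only 1.12-fold above WS. The GAPDH ratio did not follow that order, at 1.94 on CAMTA.1.2, 1.78 on CAMTA.6.2, 1.29 on CAMTA.1, 1.38 on WS and 1.64 on Col-0. The part of RNA quality in these differences was not tested.

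Genes with the most similar profiles were sought among 2108 probe sets of other genes, each naming 1 gene and lying above the floor on at least 3 arrays. The 5 nearest to AT4G12545 were AT4G11190, AT3G21770, AT2G38390, AT1G54740 and the GDSL-like lipase gene GLL23 (AT1G54010), at root mean square differences of 0.77 to 1.03. AT4G11190 was at 15.9 on the CAMTA.1.2 array, 70.1 on the CAMTA.6.2 array, 143 on the CAMTA.1 array, 28.6 on the WS array and 17.6 on the Col-0 array. AT4G12545 spanned a wider range than any of these 5.

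Nearest to AT5G46900 were the peroxidase gene PRX72 (AT5G66390) at 0.38, both probe sets of TMT1, a monosaccharide transporter gene of the vacuolar membrane, at 0.39 and 0.44, AT4G14500 at 0.45 and AT2G39430 at 0.49. PRX72 was at 65.0, 96.6, 140, 103 and 43.9 on the CAMTA.1.2, CAMTA.6.2, CAMTA.1, WS and Col-0 arrays, so CAMTA.1 was the highest and Col-0 the lowest array for both genes. Nearest to AT1G62510 was LHB1B2, a light-harvesting protein gene of photosystem II, at 0.30, with 640, 2502, 1946, 398 and 489 on the same arrays. It was followed by AT2G42040 at 0.34, the defensin gene PDF2.1 at 0.44, SKU5, a gene of directional root growth, at 0.47 and PORB, whose enzyme makes a chlorophyll precursor, at 0.48.

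AT2G44290 had the closest matches. AT1G75280 was at a root mean square difference of 0.17, with 316 on the CAMTA.1.2 array, 111 on the CAMTA.6.2 array, 69.3 on the CAMTA.1 array, 279 on the WS array and 307 on the Col-0 array. AT4G27280, a calcium-binding (EF-hand) protein gene, was at 0.18, with 390, 197, 72.9, 478 and 565 on those arrays. AT4G17840 followed at 0.30, AT2G34460 at 0.31 and the heat shock protein gene Hsp70-2 at 0.32. All 5 were lowest on the CAMTA.1 array and next lowest on the CAMTA.6.2 array. With 5 arrays many genes can come this close, and the measure says nothing of a shared role.

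**Figure D4:**
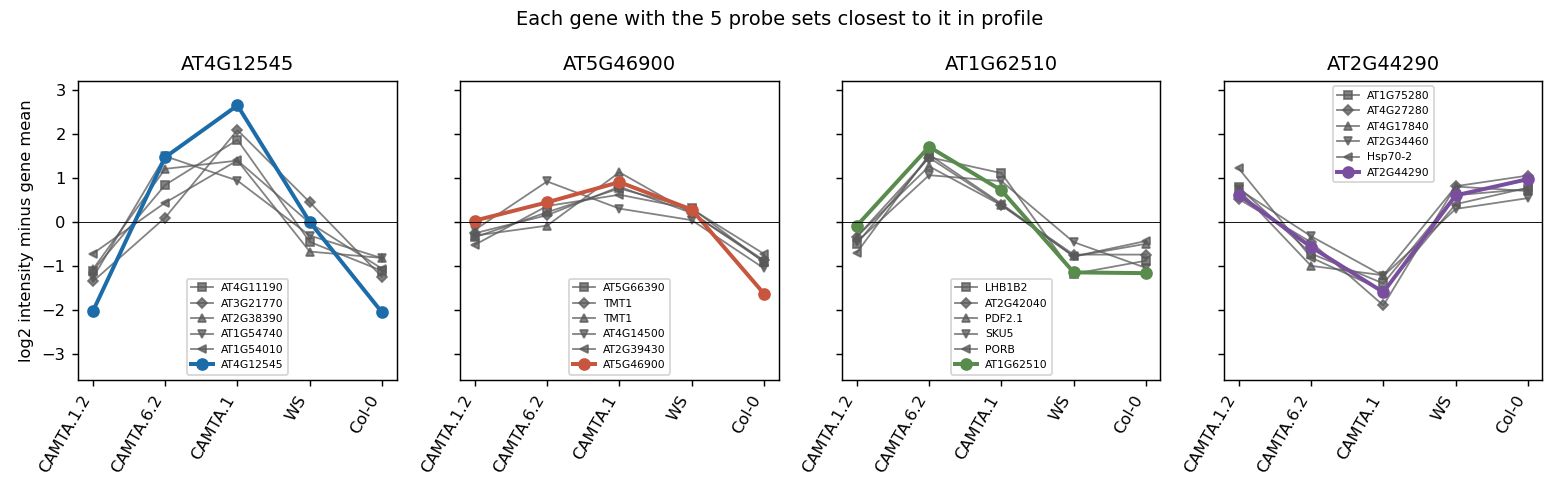
Log2 intensity minus each gene's mean (y axis) on the 5 arrays (x axis) for each of the 4 genes (coloured) and the 5 probe sets nearest to it (grey). Lines join the arrays only to guide the eye. AT2G44290 lies within its neighbours, at differences of 0.17 to 0.32, and AT4G12545 extends beyond its own, at 0.77 to 1.03.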

How the data were processed

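The 5 arrays were 1-colour Affymetrix arrays hybridised with biotin-labelled cRNA, per the labels' protocols. The deposited table held intensity values on a linear scale for 8297 probe sets, 50 of them controls. The 2% trimmed mean was 100.1 to 100.2 on every array, so the authors had brought the arrays to a common level. The sources used here do not say how probes were summarised, and detection calls were not used.

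Groups were taken from the labelled accession and line. The floor was the 40th percentile of all values, 18.1. Arrays were scaled to a common median log2 of the 4245 probe sets that exceeded the floor on every array (factors 0.940 to 1.03). Lower values were then raised to the floor before log2 differences were formed. No p-value was computed, and precision is limited by the number of arrays.

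Probe sets were named from the platform annotation through gene IDs of the TAIR10.1 gene table, used for names and neighbours only. Of them 3794 named 1 gene, 70 several and 4383 none. For a gene with several, the probe set with the highest mean was used. Named genes were the members, listed family genes and markers at 2-fold, and the 5 nearest profiles of each member. Family neighbours and a few listed genes under 2-fold were named after their values were seen. The members, lists and class assignments were chosen with earlier results of these data known. The planned search for promoter motifs was not made, since no sequence was used here. Alternatives were other scalings and floors, log2(value + 16), and the other accession as control. The steps were tested on simulated data. Python 3.11.15, numpy 2.4.6 and pandas 2.3.3 were used.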

Additional observations from a re-analysis of the deposited data

Results flagged for a closer look

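One probe set outside the comparisons above named 2 family genes at once, AT4G12510 and AT4G12520, which lie in the same run of genes as AT4G12545, and its signal exceeded that of the Col-0 array on every other array. It was at 289 on the CAMTA.1.2 array, 434 on the CAMTA.6.2 array, 533 on the CAMTA.1 array, 376 on the WS array and 166 on the Col-0 array. The order of the arrays was that of AT5G46900 and also that of AT4G12545, for which CAMTA.1.2 and Col-0 were only 1.02-fold apart. The signal was 2.62-fold higher on CAMTA.6.2 and 2.27-fold higher on WS than on Col-0, 1.75-fold higher on CAMTA.1.2 than on Col-0 and 1.42-fold higher on CAMTA.1 than on WS. The probe set cannot be assigned to either gene.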

How the results depend on the processing

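The log2 differences of the 4 members were recomputed under 5 planned settings in each of 4 comparisons, and 78 of 80 stayed within 1.5-fold and on the same side of 2-fold, with 0 changes of direction among those at 2-fold. The exceptions both came with log2(value + 16), at 0.94 for AT1G62510 in CAMTA.1.2 minus Col-0 and 2.89 for AT4G12545 in CAMTA.6.2 minus Col-0. That setting pulls low values together by construction. Each member had 1 probe set, so averaging over probe sets gave no other value. Using the other accession as control was chosen after seeing the data. AT5G46900 in CAMTA.1.2 turned to -0.25 against WS, and AT5G46900 in CAMTA.6.2 came to 0.17. AT4G12545 came to -2.03 for CAMTA.1.2 and 1.47 for CAMTA.6.2 against WS. For CAMTA.1 against Col-0, AT4G12545 came to 4.71 and AT5G46900 to 2.54. The 6 other values changed by less than 1.5-fold, but AT2G44290 in CAMTA.1.2 went from -0.36 to 0.01 against WS. Among the planned settings, AT1G62510 in WS minus Col-0, far under 2-fold, went from 0.02 to -0.02 with quantile normalization.

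Of 40 counts at 2-fold over all probe sets, 34 stayed within 1.5 times. The probe sets higher numbered 62 with the floor at the 30th percentile and 15 with log2(value + 16), against 33, for CAMTA.1.2 minus Col-0. They numbered 131 as deposited and 127 with log2(value + 16), against 199, for CAMTA.1 minus WS, and 210 with the floor at the 30th percentile and 85 with log2(value + 16), against 131, for WS minus Col-0. As deposited, the share higher was 25.8% in place of 39.4% for CAMTA.1 minus WS and 48.7% in place of 38.3% for WS minus Col-0. Of 212 values of other listed genes, 14 moved by more than 1.5-fold or across 2-fold. None at 2-fold changed direction, and 1 below it did, PSAE-1 in WS minus Col-0, from -0.22 to 0.02 with quantile normalization. No paired analysis was possible because each group has 1 array. Folds over AT4G12545 on the Col-0 array are limited by its signal, 1.37 times the floor. With 1 array per group, differences between plants, growth and hybridisation cannot be told apart from those between lines.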
